A study of Mus musculus with 16 samples.

Results

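The 9 complement genes C1qa, C1qb, C1qc, C3, C4b, C3ar1, C5ar1, Cfp and Masp1 were followed in flexor tendons of C57 and MRL mice, uninjured and 7 days post injury (dpi). They were taken by symbol from the count table of 49568 genes, and all 9 were present and passed the expression filter in every comparison. Complement is a protein cascade of innate immunity. C1q, built from the A, B and C chains that C1qa, C1qb and C1qc encode, recognises bound antibody, dying cells and other surfaces and starts the classical pathway, in which C4 is cleaved, while MASP-1 (Masp1) is a protease of the lectin pathway. Both routes lead to cleavage of C3, properdin (Cfp) stabilises the C3 convertase of the alternative pathway, and the released peptides C3a and C5a act on the receptors encoded by C3ar1 and C5ar1. The liver makes most circulating complement, but macrophages are a major source of C1q and properdin in tissues, and fibroblasts can make C3 and C4.

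RNA-seq was available for 16 libraries, with 4 animals in each of the 4 groups. Male mice of the C57BL/6J strain (C57) and the MRL/MpJ strain (MRL, studied as a model of mammalian regeneration), 9 to 11 weeks old, received a cut across about 50% of the deep digital flexor tendon of the third hind digit, or were left uninjured. Each library came from a single tendon at the injury site, with the sheath and the tissue around the tendon left in place, so the values are of bulk tissue. The question was how the transcriptional response to the injury differed between a strain that heals with scar and a strain that heals with less. A lower value in bulk tissue can mean fewer cells of a type or less RNA per cell, and these data cannot tell the 2 apart. Replicate numbers of uninjured tendons were those of the labels, injured tendons were numbered in the order of their accessions, and no number pairs animals.

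Library totals ranged from 12552424 to 23741648 counts, and each member had between 34 and 12743 counts in each library. The 4 injured MRL libraries (18524170 to 23741648) were deeper than every other library (at most 17832908), so depth goes with that group. Its part in the values was not tested. The tendon markers Scx, Mkx and Tnmd were found in every library, and 10 tendon markers summed to 16800 to 75456 CPM (counts scaled to a common library size, with sizes adjusted by TMM). The 7 liver markers in the table summed to at most 2.47 CPM. Several libraries stood apart. Of 18 genes that were counted in all injured C57 and almost absent from all injured MRL tendons, and 25 genes with the opposite pattern, uninjured C57 replicates 1 to 3 had 13 to 16 and 0 (at 10 counts or more), and uninjured MRL replicates 1 to 3 had 1 to 2 and 23 to 24. The library labelled C57 uninjured replicate 4 had 3 and 23, and the library labelled MRL uninjured replicate 4 had 14 and 0, so both went against their labels. The library labelled C57 uninjured replicate 4 also held 106019 CPM of 12 epidermal markers (24.5 to 979 in the other uninjured libraries), and C57 injured replicate 1 held 66602 CPM of 12 skeletal muscle markers. C57 injured replicate 2 held 1832 CPM of these muscle markers, and the remaining injured libraries held 6.27 to 13.7 CPM. The labels were kept. The calls of the 9 genes and of the gene lists are given with all libraries and again without those that stand apart. C57 injured replicate 2 was kept in these refits and left out only in the fits without 1 library.

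All 9 genes lie on the minus strand in the GENCODE M21 annotation of GRCm38. C1qb (chr4:136880129-136886187), C1qc (chr4:136889804-136893065) and C1qa (chr4:136895917-136898803) are neighbours within 18675 bases. C4b (chr17:34728380-34743882) and C3 (chr17:57203970-57228136) share a chromosome, and the others are C3ar1 (chr6:122847138-122856161), C5ar1 (chr7:16246743-16259540), Cfp (chrX:20925454-20931555) and Masp1 (chr16:23449417-23520815). Of the 100-base windows of the longest C4b transcript, 16.5% also occur in C4a, so C4b counts are uncertain to that extent, and C4a itself was near 0 in these libraries. No such window of the other 8 genes occurs in another gene. Masp1 overlaps Rtp4 and 2 non-coding genes on the opposite strand, but no exon base is shared. The 250 bases before the RefSeq start of C1qb and C1qc are shown because these neighbouring chains followed each other over the 16 libraries. Those of C3ar1 and C5ar1 are shown because both receptors were higher in every injured than in every uninjured tendon of each strain. The RefSeq start is not always the end of the GENCODE gene, and 151 of the 250 bases for C1qc, 202 for C5ar1, 4 for C3ar1 and 0 for C1qb lie inside the GENCODE gene given above. The sequences were read from RefSeq (GRCm38.p6), 5′ to 3′, with the match to the motif below in capitals.

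C1qb (chr4:136886201-136886450, minus strand): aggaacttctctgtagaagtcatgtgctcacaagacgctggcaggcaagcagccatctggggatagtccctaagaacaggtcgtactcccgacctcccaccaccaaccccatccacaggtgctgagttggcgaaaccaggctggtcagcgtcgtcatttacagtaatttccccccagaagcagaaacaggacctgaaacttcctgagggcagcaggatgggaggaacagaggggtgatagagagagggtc

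C1qc (chr4:136892915-136893164, minus strand): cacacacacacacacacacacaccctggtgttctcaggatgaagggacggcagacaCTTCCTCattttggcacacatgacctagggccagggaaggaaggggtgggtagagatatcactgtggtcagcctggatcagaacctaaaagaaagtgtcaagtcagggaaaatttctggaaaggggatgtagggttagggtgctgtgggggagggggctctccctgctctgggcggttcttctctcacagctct

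C3ar1 (chr6:122856158-122856407, minus strand): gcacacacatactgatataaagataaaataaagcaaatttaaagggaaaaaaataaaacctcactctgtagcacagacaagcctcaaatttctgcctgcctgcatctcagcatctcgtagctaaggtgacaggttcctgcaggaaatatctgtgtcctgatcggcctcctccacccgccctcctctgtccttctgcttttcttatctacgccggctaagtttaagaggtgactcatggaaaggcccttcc

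C5ar1 (chr7:16259339-16259588, minus strand): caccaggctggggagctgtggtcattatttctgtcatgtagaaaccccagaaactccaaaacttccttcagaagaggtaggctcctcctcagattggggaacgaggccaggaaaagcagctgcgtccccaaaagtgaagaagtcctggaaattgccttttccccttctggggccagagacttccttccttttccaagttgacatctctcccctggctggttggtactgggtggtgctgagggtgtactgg

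The motif searched on both strands was a core sequence of PU.1 (GAGGAAG), a transcription factor of myeloid cells. C1qc held 1 match, beginning 194 bases before the RefSeq start. It lies on the strand opposite to the one printed, so the capitals show its reverse complement. The same length upstream of 32851 start sites held it in 10.6%. A match is a description of letters, not of binding.

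C1qa, C1qb and C1qc were about 3 to 4 times higher in injured than uninjured C57 tendon, and the injured and uninjured MRL tendons overlapped. C1qa encodes the A chain and stood at 107, 114, 97.1 and 77.7 CPM in the uninjured C57 tendons, replicates 1 to 4 in order. The injured C57 tendons had 229, 317, 289 and 343 CPM. All 4 injured C57 tendons lay above all 4 uninjured ones. C1qa stood at 72.9, 106, 109.6 and 79.7 CPM in the uninjured MRL tendons and at 198, 119, 134 and 73.3 CPM in the injured ones. The MRL groups overlapped, and every injured MRL tendon lay below every injured C57 tendon. The B chain, C1qb, was counted at 193, 207, 189.8 and 54.4 CPM in uninjured C57 and at 409, 766, 694 and 656 CPM in injured C57 tendons. In MRL it was 51.9, 99.2, 115 and 147 CPM in uninjured and 255, 108, 164 and 72.0 CPM in injured tendons. Uninjured C57 replicates 1 to 3 lay close together, and the library labelled replicate 4 lay well below them. The C chain, C1qc, followed the same pattern, with 190.0, 196, 171 and 58.0 CPM in uninjured C57 and 378, 526, 508 and 611 CPM in injured C57 tendons. Its MRL values were 81.9, 113, 130.4 and 125 CPM uninjured and 255, 121, 175 and 53.2 CPM injured. The injured MRL tendons spread more widely than any other group for C1qc relative to their mean, from below all uninjured tendons to above them.

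**Figure D1:**
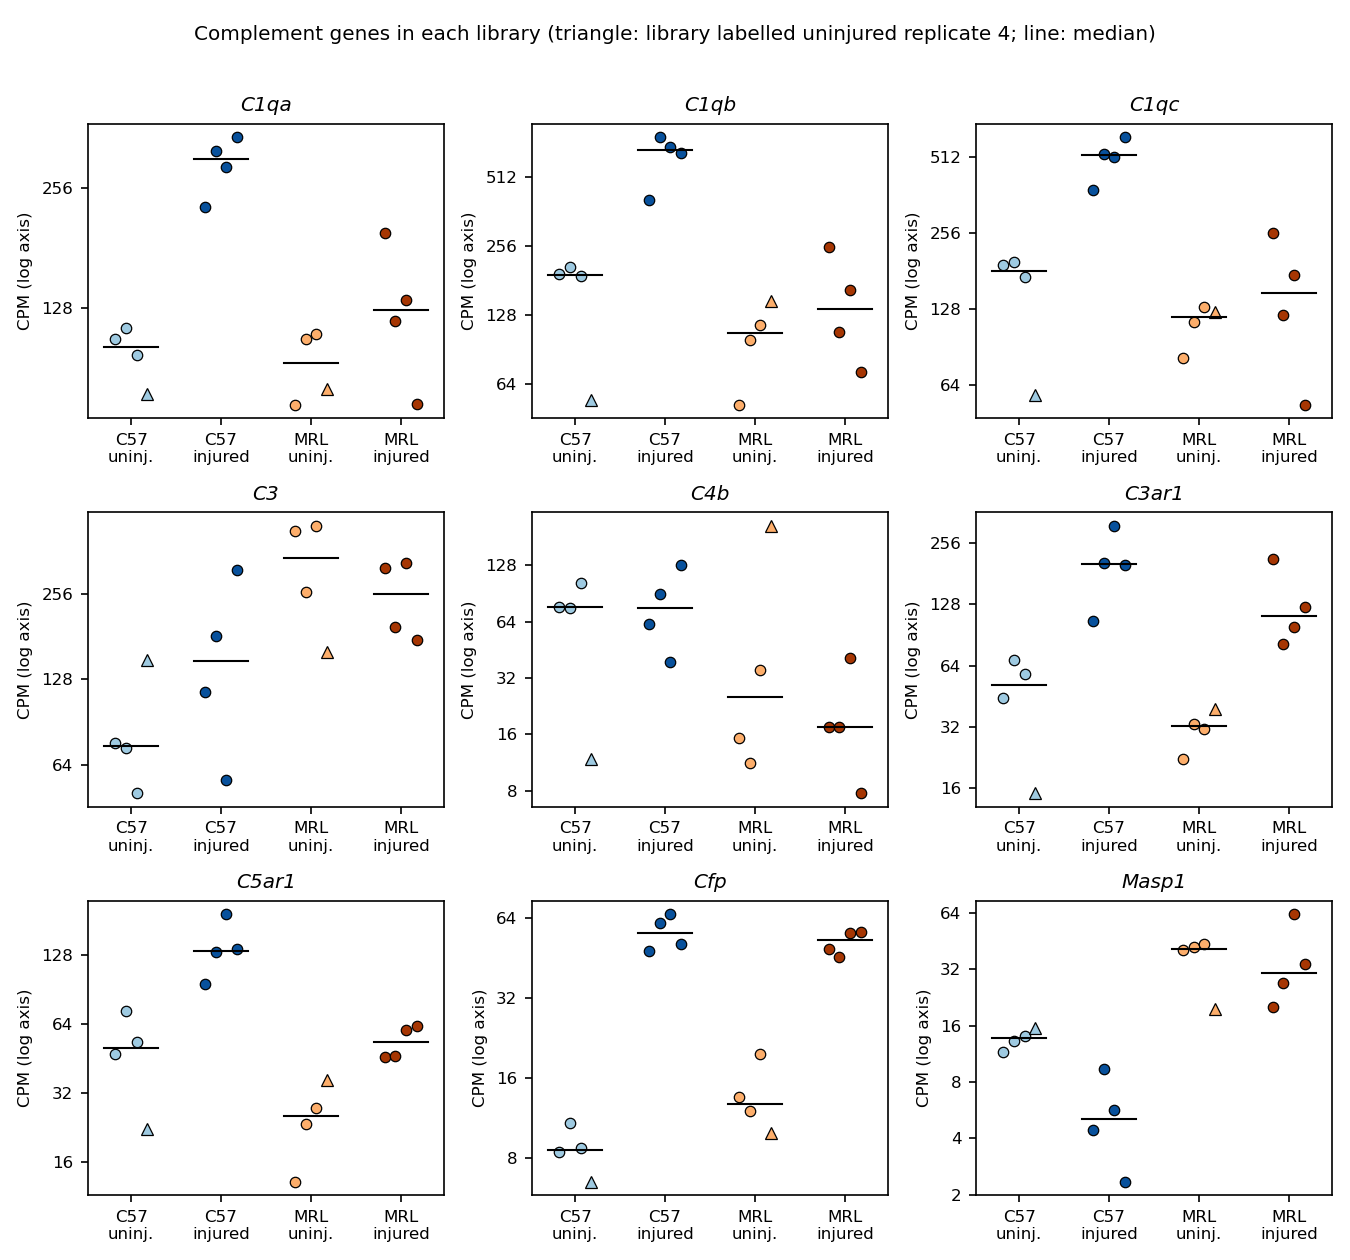
CPM of each of the 9 genes (vertical log axis) in every library of the 4 groups, with the median of each group as a line and the libraries labelled uninjured replicate 4 as triangles. The 4 injured C57 tendons lie above all other libraries for C1qa, C1qb and C1qc, and Cfp is higher in all 8 injured tendons than in all 8 uninjured ones.

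Every injured C57 tendon lay above every uninjured one for the C1q chains, the receptors and properdin, and below for Masp1. Only C1qa and Cfp passed the test with all libraries. In edgeR's quasi-likelihood test, where a call needs an adjusted p below 0.05 and a change of more than 1 log2 unit in either direction, 2 of the 9 genes were called (C1qa and Cfp, both higher), where 1.07% of 14424 genes were called, 0.908% higher and 0.166% lower. C1qa rose by a log2 fold change of 1.57 ± 0.20 (SE), adjusted p = 0.0138, a fold of 2.96. For C1qb the change was 1.96 ± 0.41 (SE), adjusted p = 0.0603, and for C1qc 1.71 ± 0.37 (SE), adjusted p = 0.064, so neither passed. The groups did not overlap for 7 of the 9 genes, 6 higher and 1 lower, against 12% of all genes (7.11% higher and 4.86% lower). For each of the 7 the two-sided exact permutation test gave p = 0.0286, the smallest that 4 against 4 libraries allow. Groups that do not overlap always give this p, so it adds nothing to that count. Without the library labelled C57 uninjured replicate 4, 6 of the 9 genes were called, all higher, where 5.01% of 14983 genes were (3.5% higher and 1.51% lower). C1qa was then 1.47 ± 0.18 (SE), adjusted p = 0.00338, C1qb 1.68 ± 0.23 (SE), adjusted p = 0.00519 and C1qc 1.44 ± 0.19 (SE), adjusted p = 0.00495. With C57 injured replicate 1 left out as well, 6 of 9 were called, against 5.97% of 14515 genes (4.53% higher and 1.44% lower). With all libraries kept, C1qb, C1qc, C3ar1 and C5ar1 were also called by DESeq2 and in one edgeR fit of all 16 libraries. The C1qa call of the full set was lost without C57 uninjured replicate 1, 2 or 3 or C57 injured replicate 2 or 4 (adjusted p = 0.0565 to 0.0679, log2 fold changes of 1.51 to 1.64), and the count of all calls fell to between 10 and 92 without any single library but that labelled C57 uninjured replicate 4.

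**Figure D2:**
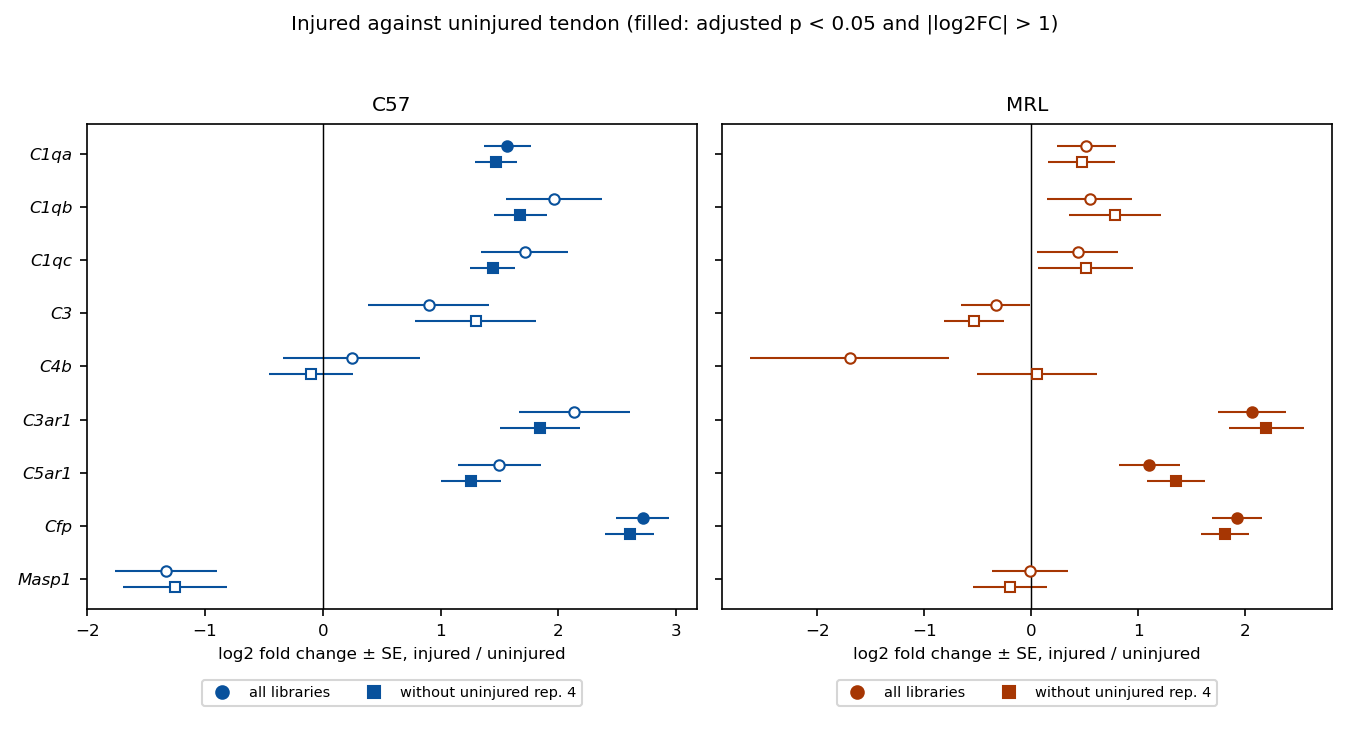
Log2 fold change ± SE of injured against uninjured tendon (horizontal axis) for the 9 genes, in C57 on the left and MRL on the right, with all libraries (circles) and without the library labelled uninjured replicate 4 (squares), filled where the gene was called. In C57 the filled symbols go from 2 to 6 genes without that library, while in MRL the 3 filled genes are C3ar1, C5ar1 and Cfp in both fits.

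In MRL tendons the receptors and properdin rose after injury, and the C1q chains did not pass. Of the 9 genes 3 were called (C3ar1, C5ar1 and Cfp, all higher), where 7.41% of 14274 genes were called, 5.25% higher and 2.15% lower. The groups did not overlap for these 3, against 22.8% of all genes (13.3% higher and 9.45% lower). C1qa changed by 0.52 ± 0.27 (SE), adjusted p = 0.246, C1qb by 0.55 ± 0.40 (SE), adjusted p = 0.404 and C1qc by 0.43 ± 0.38 (SE), adjusted p = 0.497. Without the library labelled MRL uninjured replicate 4 these 3 genes were again the ones called, where 6.11% of 14868 genes were (4.68% higher and 1.43% lower), and the C1q chains had log2 fold changes of 0.47, 0.79 and 0.51.

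Injured MRL tendon had less C1q RNA than injured C57 tendon. In this direct comparison 5 of the 9 genes were called, 4 lower in MRL (C1qa, C1qb, C1qc and C5ar1) and 1 higher (Masp1), where 3.43% of 14626 genes were called, 1.88% lower and 1.55% higher. The log2 difference of MRL from C57 was -2.12 ± 0.39 (SE), adjusted p = 0.0165 for C1qb, a level 4.34 times lower. It was -1.22 ± 0.29 (SE), adjusted p = 0.0483 for C1qa and -1.79 ± 0.41 (SE), adjusted p = 0.0423 for C1qc. The groups did not overlap for the 5 genes called, against 16.3% of all genes (7.41% lower and 8.92% higher). Without C57 injured replicate 1, where muscle markers were high, 3 of the 9 stayed called (C1qb, C5ar1 and Masp1), against 2.39% of 15205 genes (1.31% lower and 1.08% higher), and C1qa and C1qc had adjusted p = 0.0519 and 0.0533. The C1qa call was lost without any 1 of the injured libraries except MRL replicate 1 (adjusted p = 0.0519 to 0.133). That of C1qc was lost without any C57 library or MRL replicate 2 or 3 (adjusted p = 0.0533 to 0.12), and that of C1qb without C57 replicate 2 or 4 or MRL replicate 2 (adjusted p = 0.0507 to 0.0598). With all libraries kept, the C1qa call was also lost with upper-quartile factors (adjusted p = 0.053) and without edgeR's robust setting (adjusted p = 0.0515), and the C1qc call without an expression filter (adjusted p = 0.0563). In the fits without 1 library that lost the call, the log2 difference was -0.97 to -1.32 for C1qa, -1.65 to -1.91 for C1qc and -1.94 to -2.09 for C1qb, lower in MRL in each.

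Macrophage markers also rose with injury. Of 12 macrophage genes 5 were called higher in C57, where 0.908% of all genes were, and 7 in MRL, where 5.25% were. With the uninjured library labelled replicate 4 left out in each strain, the counts were 8 and 6, where 3.5% and 4.68% of all genes were called higher. The defining genes Cd68, Adgre1 and Csf1r were above 0 in every library. The summed level of the 12 genes was 1074 to 1418 CPM in uninjured C57, 4072 to 7043 CPM in injured C57, 955 to 1509.9 CPM in uninjured MRL and 3523 to 6058 CPM in injured MRL tendons. The injured strains overlapped in this sum, of which Lyz2, a lysozyme gene, made up 77.5% to 86.4% in the injured libraries. Taken gene by gene, 11 of the 12 had estimates below 0 for injured MRL against injured C57, with a median log2 difference of -0.347 where that of all genes was -0.0636, and 1 was called lower, where 1.88% of all genes were (2 without C57 injured replicate 1, where 1.31% were). Cd163, a scavenger receptor, differed by -1.98 ± 0.54 (SE), adjusted p = 0.0739, and Mertk, a receptor for dying cells, by -1.73 ± 0.50 (SE), adjusted p = 0.0865, while Cx3cr1, a chemokine receptor, differed by 1.33 ± 0.42 (SE), adjusted p = 0.109, and none of the 3 passed. Cd68, which encodes a lysosomal protein of macrophages, rose by 2.56 ± 0.31 (SE), adjusted p = 0.0121 in C57 and by 1.83 ± 0.27 (SE), adjusted p = 0.00331 in MRL. Adgre1, the gene of F4/80, rose by 2.01 ± 0.38 (SE), adjusted p = 0.0479 in C57 and by 1.67 ± 0.40 (SE), adjusted p = 0.0265 in MRL. Both calls of Cd68 and the C57 call of Adgre1 were also made without the library labelled uninjured replicate 4, and in MRL Adgre1 was then 1.73 ± 0.47 (SE), adjusted p = 0.0581. Csf1r, the receptor for the growth factor CSF1, was lower in injured MRL than injured C57 tendon, with a log2 difference of -1.39 ± 0.29 (SE), adjusted p = 0.0273. The part of macrophage number in the C1q values was not tested.

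Relative to Cd68, Adgre1 and Csf1r, C1q was lowest in injured MRL tendon, and this depended on the macrophage genes used. The mean log2 CPM of C1qa, C1qb and C1qc minus that of Cd68, Adgre1 and Csf1r was 1.68, 1.39, 1.65 and 1.35 in uninjured C57 and 1.37, 1.26, 0.97 and 1.43 in injured C57 tendons. It was 1.43, 1.00, 1.38 and 1.57 in uninjured MRL and 0.58, 0.78, 0.60 and -0.42 in injured MRL tendons. All 4 injured MRL tendons lay below the other 12 libraries, with a mean of 0.39 ± 0.54 (SD, n = 4) against 1.26 ± 0.20 in injured C57 tendons. Relative to the mean of all 12 macrophage genes, chosen after seeing the data, the injured means were 1.01 ± 0.64 in MRL and 2.22 ± 0.19 in C57 (SD, n = 4), and the 4 injured MRL tendons again lay below the other 12 libraries. Taken against each of the 12 genes alone, C1q in the injured MRL tendons lay below all injured C57 tendons for 8 and overlapped them for 4, namely Adgre1, Csf1r, Cd163 and Mertk. So of the 3 genes used above only Cd68 separated the injured strains alone. The C1q mean alone was 6.04 to 7.87 log2 CPM in injured MRL and 8.36 to 9.01 in injured C57 tendons. A gene that differs little between the strains therefore leaves C1q lower in MRL, so the count of 8 is not separate evidence. Against Cd163 the means were 3.45 in injured MRL and 3.29 in injured C57 tendons and against Mertk 4.92 in injured MRL and 4.85 in injured C57 tendons, so these means were not lower in MRL.

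The 3 chains also differed in proportion. Per kilobase of exon, C1qb made up 51.2 ± 3.87% (SD, n = 4) of the C1q RNA in injured C57 and 39.8 ± 2.62% in injured MRL tendons. C1qa made up 25.4 ± 2.05% and 38.3 ± 4.47%, without overlap between the groups. The uninjured tendons of replicates 1 to 3 were split in the same way, with C1qa at 26.2% to 27.2% in C57 and 37.8% to 43.8% in MRL. The libraries labelled replicate 4 had 48.3% in C57 and 27.8% in MRL, each near the other strain. The mean share of C1qc was 21.9% to 24.3% in the 4 groups. The lengths were all annotated exon bases, 1040 for C1qa, 1088 for C1qb and 1931 for C1qc. The longest C1qc transcript has 1203 bases, so its share may be understated and those of the other chains overstated.

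**Figure D3:**
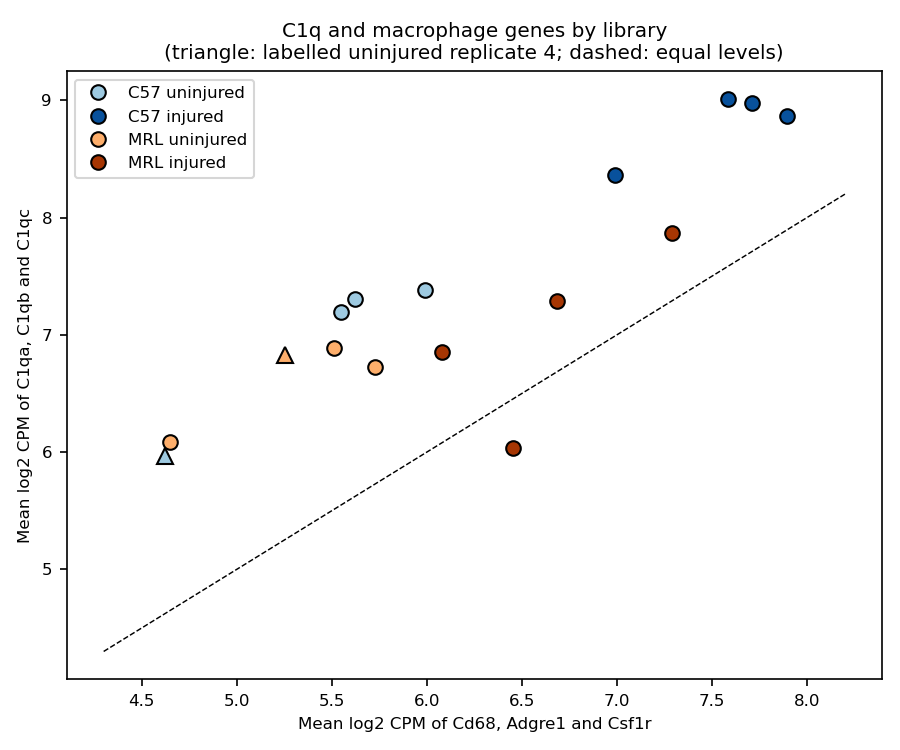
Mean log2 CPM of C1qa, C1qb and C1qc (vertical axis) against mean log2 CPM of Cd68, Adgre1 and Csf1r (horizontal axis) in the 16 libraries, with equal levels as a dashed line and the libraries labelled uninjured replicate 4 as triangles. The 4 injured MRL tendons lie nearest the dashed line, 1 of them below it, and the 4 injured C57 tendons lie at the upper right.

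C4b was lower in uninjured MRL than uninjured C57 tendon once the libraries labelled replicate 4 were left out, and it did not change with injury beyond its spread. It encodes the complement C4 that both the classical and the lectin pathway cleave. It stood at 76.8, 76.1, 103 and 11.9 CPM in uninjured C57 and at 62.0, 89.5, 38.8 and 129 CPM in injured C57 tendons. The MRL tendons had 15.4, 11.2, 35.2 and 209 CPM uninjured and 17.6, 17.5, 41.0 and 7.77 CPM injured. In replicates 1 to 3 every uninjured MRL tendon lay below every uninjured C57 tendon, whereas the library labelled C57 uninjured replicate 4 was within the MRL range and the library labelled MRL uninjured replicate 4 above all C57 tendons. The uninjured strains differed by 0.02 ± 1.00 (SE), adjusted p = 0.997 as labelled (by -0.62 in mean log2 CPM) and by -2.05 ± 0.37 (SE), adjusted p = 0.0102 without both libraries labelled replicate 4. In injured tendons C4b was -1.98 ± 0.51 (SE), adjusted p = 0.0605, with p = 0.0571 in the exact permutation test. It did not pass, but it did without MRL injured replicate 3 (adjusted p = 0.0288), on total counts (adjusted p = 0.0464) and in DESeq2 (adjusted p = 0.00229). Injury changed C4b by 0.25 ± 0.58 (SE), adjusted p = 0.891 in C57 and by -1.70 ± 0.93 (SE), adjusted p = 0.272 in MRL, where the estimate was 0.06 ± 0.56 (SE), adjusted p = 0.962 without the library labelled MRL uninjured replicate 4.

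Masp1 was higher in injured MRL than injured C57 tendon, and the strains did not overlap in either state. The uninjured C57 tendons had 11.5, 13.3, 14.1 and 15.5 CPM, and the injured ones 4.42, 9.38, 5.67 and 2.35 CPM. All injured C57 values were below all uninjured ones. The uninjured MRL tendons had 40.4, 41.9, 43.5 and 19.6 CPM and the injured ones 20.1, 27.0, 63.0 and 34.0 CPM. Each MRL library lay above each C57 library of the same state, and the lowest uninjured MRL value was in the library labelled replicate 4. The change with injury was -1.33 ± 0.44 (SE), adjusted p = 0.206 in C57, which did not pass, and -0.01 ± 0.36 (SE), adjusted p = 0.992 in MRL. Leaving out the library labelled uninjured replicate 4 gave -1.25 ± 0.44 (SE), adjusted p = 0.142 and -0.20 ± 0.35 (SE), adjusted p = 0.769. Masp1 was higher in injured MRL than injured C57 tendon by 2.67 ± 0.48 (SE), adjusted p = 0.0151, a fold of 6.36, and remained called without C57 injured replicate 1 (2.58 ± 0.54 (SE), adjusted p = 0.0423).

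C3, the component on which all pathways converge, had higher values in MRL than C57 tendon before injury, a difference that edgeR called only without both libraries labelled replicate 4. Its level was 76.5, 73.8, 51.1 and 150.1 CPM in uninjured C57 and 423, 259.8, 444 and 159.9 CPM in uninjured MRL tendons. The strains did not overlap, and the 2 values closest to each other were those of the libraries labelled replicate 4. Injured tendons had 115, 181, 56.9 and 309 CPM in C57 and 315, 196, 328 and 177 CPM in MRL. The injured strains overlapped, and the injured C57 tendons spread widely. The changes with injury, 0.90 ± 0.51 (SE), adjusted p = 0.437 in C57 and -0.33 ± 0.32 (SE), adjusted p = 0.545 in MRL, did not pass, with or without the libraries labelled replicate 4.

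Properdin rose with injury in both strains, to levels that overlapped. Cfp stood at 8.44, 10.8, 8.67 and 6.49 CPM in uninjured C57 and at 48.1, 61.4, 66.4 and 51.4 CPM in injured C57 tendons. In MRL it was 13.6, 12.0, 19.6 and 9.87 CPM in uninjured and 49.2, 45.6, 56.5 and 56.7 CPM in injured tendons. Every injured tendon exceeded every uninjured tendon of either strain. The log2 fold change was 2.71 ± 0.23 (SE), adjusted p = 0.00257 in C57, a fold of 6.56, and 1.92 ± 0.23 (SE), adjusted p = 0.00166 in MRL, a fold of 3.80. Cfp was called in both strains with each single library left out. Between injured strains it differed by -0.18 ± 0.17 (SE), adjusted p = 0.597.

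The receptor genes C3ar1 and C5ar1 were higher in every injured than in every uninjured tendon of each strain. In C57 neither passed the test with all libraries. C3ar1, the receptor for C3a, had 44.6, 68.7, 58.1 and 15.2 CPM in uninjured C57 and 107, 204, 312 and 200.3 CPM in injured C57 tendons. It had 22.2, 33.2, 31.2 and 39.2 CPM in uninjured and 215, 81.5, 99.7 and 124 CPM in injured MRL tendons. The injured tendons of each strain lay above all its uninjured tendons, and the injured strains overlapped. C5ar1, the receptor for C5a on myeloid cells, had 47.3, 72.8, 53.6 and 22.3 CPM in uninjured C57 and 96.0, 132, 193 and 135 CPM in injured C57 tendons. The MRL values were 13.2, 23.6, 27.5 and 36.7 CPM uninjured and 46.2, 46.7, 60.6 and 62.8 CPM injured. Here the injured strains did not overlap, and injured MRL tendons overlapped uninjured C57 tendons.

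In C57, C3ar1 changed by 2.13 ± 0.47 (SE), adjusted p = 0.0681 and C5ar1 by 1.497 ± 0.35 (SE), adjusted p = 0.0851, and neither passed. Without the library labelled C57 uninjured replicate 4 both were called, with 1.84 ± 0.34 (SE), adjusted p = 0.0167 and 1.26 ± 0.26 (SE), adjusted p = 0.0231. C3ar1 rose in MRL by 2.06 ± 0.31 (SE), adjusted p = 0.00407, and C5ar1 by 1.11 ± 0.28 (SE), adjusted p = 0.0336. The MRL call of C5ar1 was lost without any single library except that labelled MRL uninjured replicate 4 (adjusted p = 0.0542 to 0.0867, log2 fold changes of 0.89 to 1.18), and also in one fit of all 16 libraries (adjusted p = 0.0621). C5ar1 was lower in injured MRL than injured C57 tendon, with a log2 difference of -1.41 ± 0.23 (SE), adjusted p = 0.00984, which lost its call without MRL injured replicate 2 (adjusted p = 0.0502, log2 difference -1.29). For C3ar1 this difference was -0.71 ± 0.37 (SE), adjusted p = 0.306. C3ar1 minus C5ar1 in log2 CPM was 0.51 ± 0.25 in injured C57 and 1.18 ± 0.70 in injured MRL tendons (SD, n = 4). The highest injured C57 value was 0.695 and the lowest injured MRL value 0.717, and MRL injured replicate 1 had 2.21. In uninjured tendons, where the strains overlapped, it was -0.15 ± 0.28 in C57 and 0.38 ± 0.30 in MRL.

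Before injury C3 and Masp1 stood higher in MRL tendons, and further members were called once the libraries labelled replicate 4 were left out. As labelled, 0 of the 9 genes and 0% of 14055 genes were called by edgeR (1106 genes had an unadjusted p under 0.05, and DESeq2 called 101 genes, C3 and Masp1 among them). The groups did not overlap for C3 (1.85 ± 0.41 (SE), adjusted p = 0.621) and Masp1 (1.40 ± 0.28 (SE), adjusted p = 0.585), against 4.99% of all genes (2.92% higher and 2.08% lower). With both libraries left out, 5 of the 9 were called, 2 higher and 3 lower in MRL, where 3.48% of 14274 genes were (2.07% higher and 1.41% lower). C3 was higher in MRL by 2.48 ± 0.23 (SE), adjusted p = 0.000198, and Masp1 by 1.69 ± 0.19 (SE), adjusted p = 0.000692. C1qb was lower in MRL, with a log2 difference of -1.15 ± 0.24 (SE), adjusted p = 0.0208, and so was C5ar1, with -1.44 ± 0.28 (SE), adjusted p = 0.0146. C4b was the fifth, given above. C1qc and C3ar1 had adjusted p = 0.0213 and 0.0263 but log2 differences of -0.78 and -0.99, inside the limit of 1. C1qa and Cfp did not pass, at -0.14 ± 0.16 (SE), adjusted p = 0.728 and 0.69 ± 0.30 (SE), adjusted p = 0.259.

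**Figure D4:**
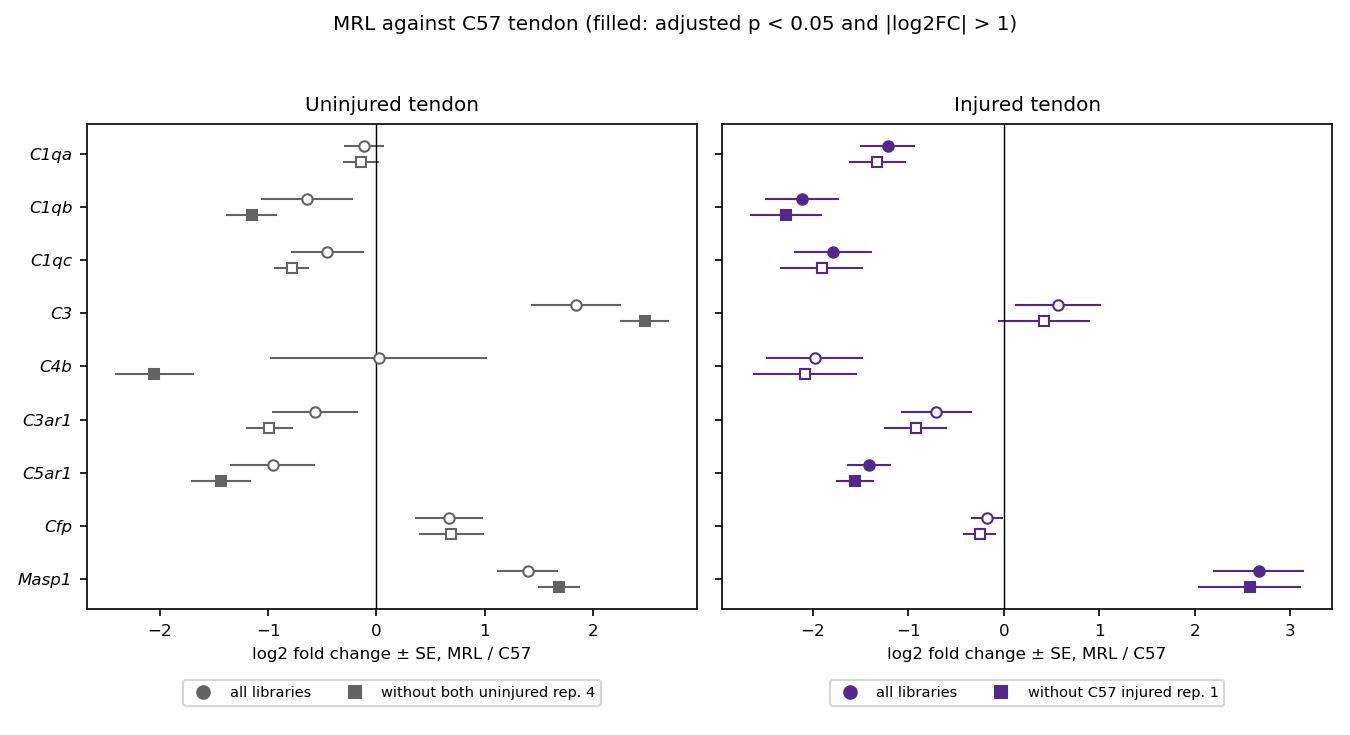
Log2 fold change ± SE of MRL against C57 tendon (horizontal axis) for the 9 genes, uninjured on the left and injured on the right, with all libraries (circles) and without the library or libraries named in the legend (squares), filled where the gene was called. Masp1 lies to the right of 0 and C1qb and C5ar1 to the left in both states, and C4b in uninjured tendon moves from 0.02 to -2.05 when both libraries labelled replicate 4 are left out.

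The difference between the strains in their response to injury was tested as an interaction over all 16 libraries, and no member passed. In edgeR 0 of the 9 genes and 0% of 15947 genes were called (1939 genes had an unadjusted p under 0.05), and DESeq2 called 212 genes but none of the 9. C1qa had a log2 difference of MRL response minus C57 response of -1.10 (95% interval -1.86 to -0.34), adjusted p = 0.339. That of C1qb was -1.47 (95% interval -2.77 to -0.17), adjusted p = 0.37, and that of C1qc -1.33 (95% interval -2.54 to -0.12), adjusted p = 0.381. The C1q intervals lay below 0, but none survived adjustment. Cfp had -0.84 (95% interval -1.502 to -0.18), adjusted p = 0.344, and Masp1 1.27 (95% interval 0.08 to 2.46), adjusted p = 0.392. C3 had -1.29 (95% interval -2.67 to 0.10), adjusted p = 0.446, and C4b -1.99 (95% interval -4.62 to 0.64), adjusted p = 0.542, with intervals on both sides of 0. The receptors also had such intervals, with -0.13 (95% interval -1.37 to 1.11), adjusted p = 0.96 for C3ar1 and -0.45 (95% interval -1.45 to 0.56), adjusted p = 0.759 for C5ar1. Without both libraries labelled replicate 4, 0 of 16391 genes were called (1735 with an unadjusted p under 0.05), and the estimates were -1.06 for C1qa, -0.96 for C1qb, -1.0002 for C1qc, -1.90 for C3 and 0.085 for C4b.

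In order of group means, C1qa, C1qb, C1qc and C5ar1 were highest in injured C57 tendon, apart from the next group in range, and the 3 groups below overlapped their neighbours. For C3ar1 and Cfp both injured groups stood above both uninjured groups, with overlap inside each pair. C3 ran from uninjured MRL through injured MRL and injured C57 to uninjured C57, and each neighbouring pair overlapped. Masp1 ran from the 2 MRL groups, which overlapped, to uninjured C57 and then injured C57 tendon, which did not. All neighbours overlapped for C4b.

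The rest of the pathway was described with 47 other complement genes, sorted by role. In C57, 28 of these were tested and 1 was called (Itgb2, higher), where 1.07% of all genes were called, with a median log2 fold change of 1.84 where that of all genes was -0.0479. Without the library labelled C57 uninjured replicate 4, 4 of 28 were called, 3 higher and 1 lower, against 5.01% of all genes, with a median of 1.49 where that of all genes was -0.00635. In MRL, 27 were tested, 4 were called higher and 2 lower, where 5.25% of all genes were called higher and 2.15% lower, and the median was -0.156 where that of all genes was -0.034. Without the library labelled MRL uninjured replicate 4 the calls were 3 higher and 1 lower of 33, against 4.68% and 1.43% of all genes.

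The integrin chains that form complement receptors for cleaved C3 rose in MRL, as Itgb2 did in C57. Itgb2 encodes the chain that both receptors share, and had 30.4, 50.5, 34.2 and 10.6 CPM in uninjured C57 and 144, 111, 238 and 153 CPM in injured C57 tendons. It had 9.75, 27.9, 20.5 and 32.4 CPM in uninjured MRL and 127, 100.4, 107 and 113 CPM in injured MRL tendons. No injured tendon of a strain overlapped its uninjured group. The change was 2.35 ± 0.44 (SE), adjusted p = 0.0471 in C57 and 2.32 ± 0.32 (SE), adjusted p = 0.00252 in MRL, and both were also called without the library labelled uninjured replicate 4. Its partner Itgam rose by 1.23 ± 0.28 (SE), adjusted p = 0.0209 in MRL, and in C57 the change was 1.69 ± 0.40 (SE), adjusted p = 0.0854. Itgax, the other partner, was at most 1 count in each uninjured MRL library and at 1.73, 5.45, 6.76 and 20.4 CPM in the injured ones, and was called. In C57 it changed by 2.18 ± 1.12 (SE), adjusted p = 0.39. Cd93, a lectin-like receptor of myeloid and endothelial cells, rose in MRL by 2.23 ± 0.53 (SE), adjusted p = 0.0257, and its call was absent without the library labelled MRL uninjured replicate 4. In C57 Cd93 changed by 1.84 ± 1.05 (SE), adjusted p = 0.439. Itgam and Cd93 were called in C57 as well once C57 injured replicate 1 and the library labelled C57 uninjured replicate 4 were both left out, with 1.69 ± 0.39 (SE), adjusted p = 0.032 and 1.64 ± 0.40 (SE), adjusted p = 0.041.

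The 2 genes called lower in MRL were regulators. Clu, which encodes clusterin, an inhibitor of the terminal complex and the most abundant gene of its list, fell in MRL, with a log2 fold change of -1.52 ± 0.30 (SE), adjusted p = 0.0106. In C57 it was -1.73 ± 0.37 (SE), adjusted p = 0.0632, and it was called there without the library labelled replicate 4 (-1.93 ± 0.29 (SE), adjusted p = 0.00841). Cd55, which encodes decay-accelerating factor, a brake on the C3 convertases, was -1.40 ± 0.38 (SE), adjusted p = 0.0411 in MRL, and its call was absent without the library labelled MRL uninjured replicate 4. In C57 the protease gene C1s1 and factor B (Cfb) were called higher without the library labelled replicate 4, with 1.77 ± 0.41 (SE), adjusted p = 0.0388 and 2.78 ± 0.67 (SE), adjusted p = 0.0443. Cfb was low, at 0.47 to 0.85 CPM in uninjured C57 replicates 1 to 3 and 1.76 to 7.25 CPM in injured C57 tendons. The most abundant genes of 3 other lists, Colec12, Cfd and C7, did not pass in either strain. Colec12, a scavenger receptor with a collectin domain, changed by 0.35 ± 0.29 (SE), adjusted p = 0.603 in C57 and -0.36 ± 0.23 (SE), adjusted p = 0.348 in MRL. Factor D (Cfd) changed by 1.84 ± 0.93 (SE), adjusted p = 0.385 and 0.50 ± 1.70 (SE), adjusted p = 0.88, and C7, a terminal component, by 3.18 ± 1.10 (SE), adjusted p = 0.228 and -1.35 ± 1.28 (SE), adjusted p = 0.531.

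**Figure D5:**
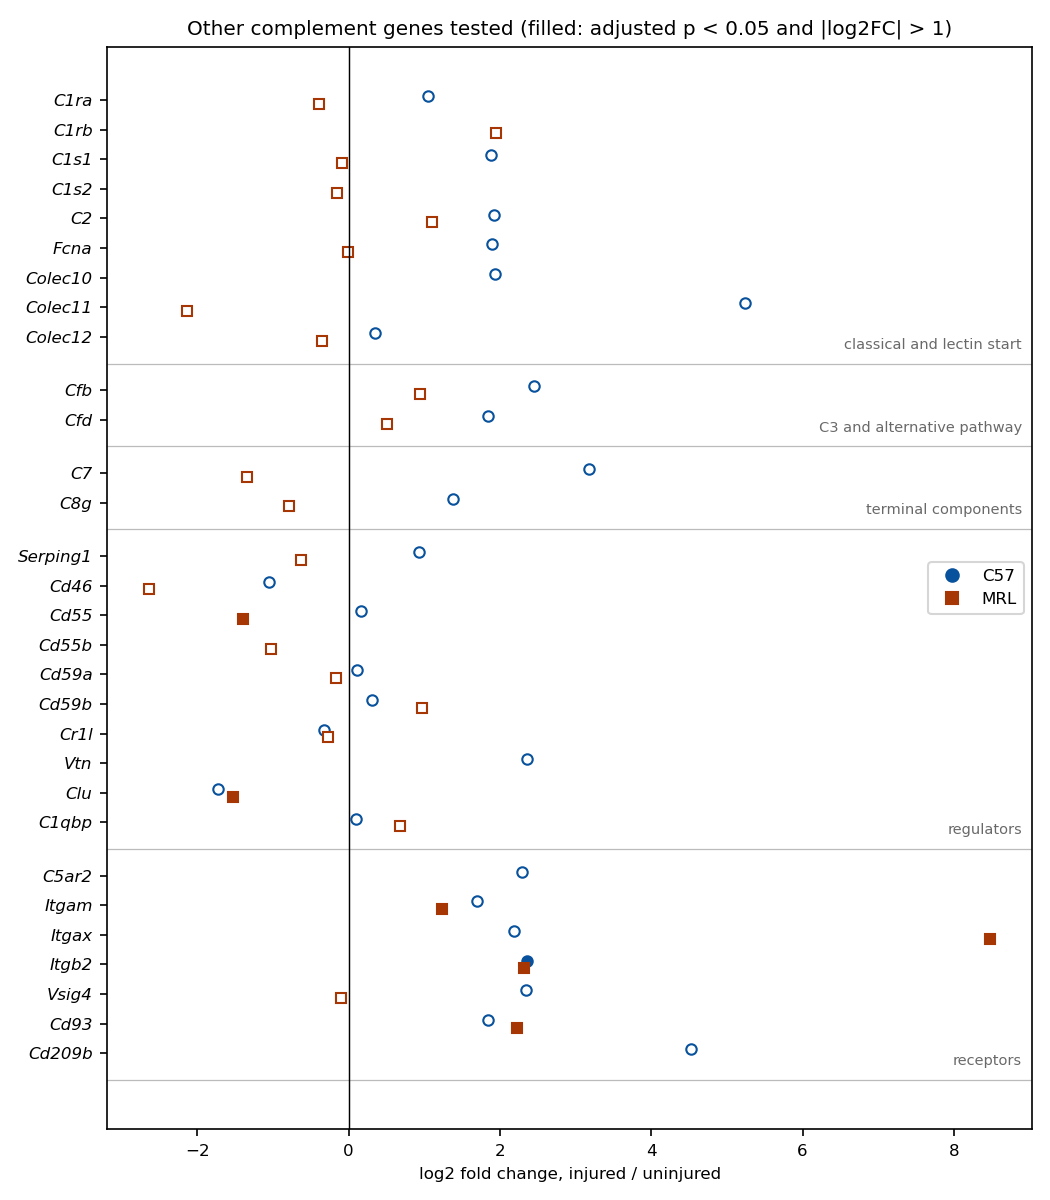
Log2 fold change of injured against uninjured tendon (horizontal axis) for tested complement genes other than the 9, sorted by role, in C57 (circles) and MRL (squares), filled where called. Filled symbols are found among the receptors (right of 0) and the regulators (left of 0), and the position of Itgax in MRL depends on the prior count because its uninjured libraries held at most 1 count.

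Between the injured strains, 2 of 28 other complement genes were called, where 3.43% of all genes were, and 1 of 29 without C57 injured replicate 1, where 2.39% were. Vsig4, a complement receptor of resident macrophages, had 90.9, 81.1, 150.4 and 298 CPM in injured C57 and 20.4, 24.3, 46.3 and 18.4 CPM in injured MRL tendons, without overlap. The log2 difference was -2.56 ± 0.47 (SE), adjusted p = 0.0165, and -2.75 ± 0.46 (SE), adjusted p = 0.0192 without C57 injured replicate 1. C1rb had at most 2 counts in each injured C57 library and 4.74, 1.74, 31.5 and 2.61 CPM in the injured MRL libraries, and was called. It was not called without C57 injured replicate 1. Before injury and without both libraries labelled replicate 4, C1ra, C1rb, C1s1 and C1s2, the proteases that associate with C1q and their close copies, were called higher in MRL, 4 of 27 tested, where 2.07% of all genes were. C1ra was higher by 1.15 ± 0.23 (SE), adjusted p = 0.0195 and C1s1 by 1.56 ± 0.35 (SE), adjusted p = 0.0299. C1s2 had 0, 0, 0 and 1.77 CPM in uninjured C57 and 3.18, 6.47, 12.6 and 0 CPM in uninjured MRL tendons, again with the libraries labelled replicate 4 near the other strain. C1rb and C1s2 are close copies of C1ra and C1s1, so how reads were divided among them is uncertain.

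Between the injured strains, the summed blood endothelial and fibroblast markers did not overlap. The summed tendon, neutrophil and T lymphocyte markers did. The 10 tendon markers summed to 18721 to 35172 CPM in injured C57 and 34465 to 75456 CPM in injured MRL tendons. All 10 had estimates above 0 for MRL against C57, with a median log2 difference of 0.984 (0.823 without C57 injured replicate 1), and 1 was called, Scx, higher in MRL in both fits, where 1.55% of all genes were called higher (1.08% without C57 injured replicate 1). Blood endothelial markers (10 genes) summed to 139 to 306 CPM in injured C57 and 5.35 to 40.4 CPM in injured MRL tendons, and 4 of 10 were called lower in MRL, where 1.88% of all genes were. Without C57 injured replicate 1 this was 1 of 10, where 1.31% of all genes were. Uninjured tendons had 20.5 to 141 CPM of these markers in C57 and 19.8 to 103 CPM in MRL. Fibroblast markers (10 genes) summed to 23651 to 47159 and 53568 to 72689.7 CPM, a sum of which Dcn made up 52.6% to 72.6%. Of the 10 fibroblast genes 7 had estimates below 0 for injured MRL against injured C57, with a median log2 difference of -0.344 where that of all genes was -0.0636. Only 1 was called, higher in MRL, with and without C57 injured replicate 1, against the same shares of all genes called higher. Neutrophil markers were at 3.78 to 7.09 and 4.53 to 31.5 CPM and T lymphocyte markers at 11.4 to 30.5 and 29.6 to 40.1 CPM. The part of these cells in the values of the 9 genes was not tested.

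The genes whose log2 CPM followed each member most closely over the 16 libraries are a description only, since all points share the strains, the injury and the 4 groups, and 13551 genes were compared. The mean of the C1q chains was nearest to Csf1r (Pearson's r = 0.951), followed by Ehd4, Gpr34, St6gal1 and Iqgap2 (0.92 to 0.931). C3ar1 was nearest to Spi1, the gene of PU.1 (0.975), with Cyth4, Ctss, Ccr1 and Adgre1 next (0.959 to 0.966). Cfp was nearest to the lysozyme gene Lyz2 (0.963), with Rgs19, Ccl9, Cd68 and Fcgr2b next. C5ar1 was nearest to Pf4, which encodes a chemokine (0.954), with Pirb, Cd300ld, Rap1a and S1pr1 next. Masp1 followed Ucma, a gene of cartilage matrix (0.941), then Selenbp2, Rps10-ps4, Pla2g2a and Hddc3. C4b was nearest to Cyp11a1 (0.914), then Lmo2, Tex26, Optc and Ang, and C3 to Steap3 (0.855), then Hmgcll1, Cant1, Serpina3n and H2-Q7. Among the members, C1qb and C1qc had r = 0.977 and C3ar1 and C5ar1 had r = 0.877.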

How the data were processed

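RNA-seq of single flexor tendons was analysed in 16 libraries, grouped by the labels. The authors trimmed 100 nt single-end reads and aligned them to GRCm38.p5, and deposited whole-number counts per gene symbol with no normalization. The submitters' processing notes name Trimmomatic 0.36, STAR 2.5.2b, featureCounts of Subread 1.5.0p3 and DESeq2 1.14.1. The gene annotation and strand setting are not given in the sources used here. The methods describe pre-amplification of the RNA and the labels a kit without it, and the effect on the counts was not tested. Reads of both strains were aligned to the C57BL/6J reference.

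Each comparison was fitted with edgeR 4.0.16 in R 4.3.3 (filterByExpr, TMM, robust quasi-likelihood test, Benjamini-Hochberg adjustment over all genes tested), the interaction over all 16 libraries. Each SE was back-calculated from the F value of the test, and intervals used its degrees of freedom. Log2 CPM used a prior count of 2. Exact permutation tests were two-sided. Alternatives were DESeq2 1.42.0, other scalings and filters, one fit of all libraries, libraries left out and a replicate block. The fits were tested on simulated data. Some genes and motifs are not reported here. The members and gene lists were chosen with earlier results of these data known. Outside the members, complement genes were named where called in any comparison of 2 groups or as the most abundant non-member of a list. The 5 genes most like a member were also named. Marker genes were named as examples, and not all those called are named. Leaving out both libraries labelled replicate 4 in the interaction, the list counts without the libraries that stand apart, and C1q against all 12 macrophage genes, were chosen after seeing the data. With 4 animals a group, p-values cover the spread between these animals, and counting error is small against it at these totals. Same-numbered uninjured libraries did not deviate together (correlations of -0.262 to 0.016).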

Additional observations from a re-analysis of the deposited data

Results flagged for a closer look

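In 4 of the 36 combinations of a gene and a group, a single library stood apart from the other 3 in log2 CPM by more than Dixon's 95% critical value for 4 samples, which chance gives in about 1 of 20 groups. In the uninjured C57 group this was the library labelled replicate 4, low for C1qb (gap over range 0.934 in log2 CPM, 54.4 CPM against 189.8 to 207 CPM), for C1qc (0.886, 58.0 CPM against 171 to 196 CPM) and for C4b (0.858, 11.9 CPM against 76.1 to 103 CPM). In the uninjured MRL group it was the library labelled replicate 4, low for Masp1 (0.906, 19.6 CPM against 40.4 to 43.5 CPM). On the CPM scale itself, tried after seeing the data, 3 combinations passed. These were C1qb (0.886) and Masp1 (0.869) again, and C4b in the library labelled MRL uninjured replicate 4, which was high (0.879, 209 CPM against 11.2 to 35.2 CPM, and 0.61 in log2 CPM). C1qc (0.816) and C4b (0.702) in uninjured C57 did not pass on that scale. Both are the libraries whose strain genes went against their labels. Their part in these values was not tested.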

How the results depend on the processing

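Over 828 refits of a member in a comparison, 750 kept both direction and call, 33 lost a call, 25 gained one and 20 changed sign, of which 1 (C4b between uninjured strains without both libraries labelled replicate 4) also gained a call. The number of genes called after injury in C57 (155) was 909 with DESeq2, 367 in one fit of all libraries, 867 with C57 injured replicate 1 and the library labelled C57 uninjured replicate 4 both left out, and 10 to 750 with single libraries left out. After injury in MRL (1057) it was 1818 with DESeq2 and 689 to 1260 with single libraries left out. Between injured strains (502) it was 1488 with DESeq2, 227 in one fit of all libraries and 231 to 481 with single libraries left out. Between uninjured strains (0) it was 101 with DESeq2, 1 without a filter, 0 to 3 with single libraries left out and 497 without both libraries labelled replicate 4. The interaction (0) had 212 calls with DESeq2. The cause was not tested. The sign changed for C4b after injury in C57 without the library labelled C57 uninjured replicate 4 (-0.10) or C57 injured replicate 4 (-0.06), with a range of -0.10 to 0.53 over single libraries left out, and in MRL without the library labelled MRL uninjured replicate 4 (range -2.23 to 0.056). Masp1 after injury in MRL was above 0 with 6 single libraries left out (range -0.41 to 0.17). In the interaction C3ar1 was above 0 without the library labelled C57 uninjured replicate 4, C57 injured replicate 3 or MRL injured replicate 2 (range -0.50 to 0.16), and without both libraries labelled replicate 4 C3ar1 was 0.29, C4b 0.085 and C5ar1 0.037. C4b between uninjured strains was -0.024 with total counts, -1.70 to 0.38 with single libraries left out (below 0 without the library labelled C57 or MRL uninjured replicate 4), -2.05 without both and -1.22 with a replicate block. The replicate block called 0 genes, as did the fit without it, and no call of a member changed.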

Other observations

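Several complement genes had few or no counts. Mbl1, Mbl2 and Fcnb, which encode recognition molecules of the lectin pathway, and C8a, which encodes a subunit of the membrane attack complex, had 0 counts in every library, which at 3 counts allows up to 0.239 CPM in the library with the highest such limit. Hc, which encodes C5, reached 1.01 CPM in 1 injured MRL tendon and at most 0.0781 CPM in the uninjured C57 tendons. By contrast Serping1, the gene of the C1 inhibitor, averaged 662 CPM in uninjured C57, 1265 CPM in injured C57, 955 CPM in uninjured MRL and 611 CPM in injured MRL tendons. It passed the test in no comparison. These genes were singled out after their values were seen.

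The 9 members together made up 0.0352% to 0.0951% of the counts in the uninjured libraries, 0.14% to 0.274% in injured C57 and 0.0643% to 0.14% in injured MRL tendons.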
